A study of Homo sapiens with 9 samples.

Results

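The Hedgehog pathway genes examined here included the receptor PTCH1, the transducer SMO, the co-receptors GAS1 and BOC, and HHIP, which sequesters ligand. The others were the inhibitor SUFU and the transcription factors GLI1, GLI2 and GLI3. These 9 genes were taken by symbol from the 18970 gene symbols of each count table, with no rule on their values. The list was made with earlier results of these data known. All 9 were expressed and could be tested. The values come from SLAM-seq, which separates newly made from older RNA, in cranial neural crest cells (CNCCs) made from the human embryonic stem cell line H9, which is established and widely used. Every sample, controls included, carried FKBP12-F36V, mNeonGreen and V5 fused to the C terminus of SOX9 on both alleles, so no group had untagged SOX9. Differentiation was complete before SOX9 was depleted. The small molecule dTAGV-1 (500 nM) brings the tagged protein to a ubiquitin ligase for degradation. The 0h group received vehicle, DMSO, and is labelled as having 100% of SOX9, while the groups exposed for 3h and 24h are labelled 0%. All groups were labelled with 4-thiouridine (4sU, 100 uM) for the last 2 h and were grown in medium with BMP2 and the WNT agonist CHIR-99021. Each group held 3 samples from the same 3 cultures, S9CC13_R6, S9CC47_R5 and S9CC47_R6, named for 2 clones of 1 line and 2 differentiation batches. The p-values therefore concern the spread among libraries of these cultures that is left after the covariates given below. The main fit did not pair samples by culture. Untagged cells exposed to dTAGV-1 were not analysed here.

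Hedgehog ligands are secreted proteins that pattern the face and limbs, and cranial neural crest is among the tissues that receive them. PTCH1 binds the ligand and, when unbound, holds SMO inactive at the primary cilium. BOC and GAS1 help PTCH1 to bind ligand, and HHIP sequesters it. SMO activity releases GLI2 and GLI3 from SUFU and prevents GLI3 from being trimmed into a repressor. GLI1 lacks a repressor form and, with PTCH1 and HHIP, is among the genes that GLI proteins induce in many tissues.

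In SLAM-seq the incorporated 4sU is alkylated and read as a T>C conversion. T>C reads thus stand for RNA made during labelling, unconverted reads for older RNA and for new RNA that took up no label, and total reads for both. Libraries held 16955633 to 28782678 total reads (median 21356401) and 3130673 to 5475800 T>C reads (median 3957989). The S9CC13_R6 library at 3h stood apart, with the lowest T>C share (15.92%, against up to 21.3%) and the most extreme surrogate variable. That variable is an estimate of unlabelled variation used as a covariate. In total reads it was -0.671 in that library and, next in size, 0.589 in S9CC47_R6 at 24h. How much of the change with time it took up was not tested. Fold changes below come from the fit and can differ from the ratio of group means. All 8 cranial neural crest markers exceeded 1 CPM (a gene's count scaled to a common library total) in all 9 libraries. Of other cell types, POU5F1, NANOG, all 4 neural progenitor and all 3 endothelial markers stayed under 1 CPM, as did SHH and FOXA2 of the floor plate, a source of Hedgehog ligand, whereas the floor plate marker NTN1 had 9.10 to 15.5 CPM. Of the 3 melanocyte markers, MLANA stayed under 1 CPM, while MITF had 0.786 to 1.73 CPM and PMEL 0.903 to 2.01. The summed level of the 8 neural crest markers was 2699 to 2824 CPM at 0h and 2998 to 3236 at 24h, and that of the 4 glial crest markers was 2.24 to 4.90 and 0.229 to 0.895. For the 4 pluripotency markers it was 350 to 414 CPM at 0h and 281 to 306 at 24h, carried by LIN28A and DPPA4, and for the 4 chondrocyte markers it was 340 to 372 and 172 to 225, carried by COL2A1 and COL9A1. Their part in the results below was not tested. SOX9 RNA does not check the labels, because depletion acts on the protein: its total reads averaged 16727 ± 805 at 0h and 37294 ± 2264 at 24h (SD, n = 3).

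At 24h, BOC, GAS1, GLI1, GLI3 and HHIP were higher in total reads than at 0h, by 1.20- to 1.90-fold, and no Hedgehog gene was called lower. The other 4, PTCH1, SMO, GLI2 and SUFU, did not pass the test. The test was DESeq2's Wald test with differentiation batch and 1 surrogate variable as covariates, and genes were called at a Benjamini-Hochberg adjusted p under 0.1 over all genes tested. Among the 11710 genes tested, 7.11% were called higher and 7.85% lower at 24h, and the median log2 fold change of the 9 genes was 0.27 against 0.0036 for all genes. In T>C reads, 1 of the 9 was called higher at 24h, GLI3, where 2.38% of 12037 genes were called higher and 2.59% lower. Their median there was 0.31 against 0.0015. In these bulk samples, more RNA per cell and more cells of an expressing type cannot be told apart.

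The calls in total reads depended on the covariates and on which libraries and cultures were fitted. Without the S9CC13_R6 library at 3h and with the surrogate variable estimated again, 0 of the 9 genes were called at 24h. Calls over all genes then went from 1751 to 424. Without that library and without a surrogate variable, the same 5 genes were called. With only the 6 samples at 0h and 24h and a surrogate variable, 0 of the 9 genes and 371 of all genes were called. With culture as a block, which pairs each 24h sample with its own 0h sample, the same 5 genes were called in total reads, and 3 (BOC, GAS1 and GLI3) in T>C reads. The block called 14.7% of all genes in total reads and 6.00% in T>C reads. With the surrogate variable kept, the count in total reads at 24h was 0 without culture S9CC13_R6 or S9CC47_R6, and 3 (GAS1, GLI3 and HHIP) without S9CC47_R5. With no surrogate variable it was 1 (BOC) without S9CC13_R6, 0 without S9CC47_R6 and 5 without S9CC47_R5. Without these cultures, in that order, 1.33%, 2.82% and 6.22% of all genes were called with the surrogate variable. Without the variable the shares were 2.61%, 3.29% and 11.5%. The calls at 3h in total and unconverted reads, described below, were lost when any of the 3 cultures, or that library alone, was left out.

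At 3h, GLI1 was the only Hedgehog gene called in total reads, where 1.11% of genes were called higher and 0.777% lower. In T>C reads at 3h, 0 of the 9 were called by DESeq2 or by edgeR, none had an unadjusted DESeq2 p under 0.05, and 1.79% of genes were called in either direction. Between 3h and 24h, BOC alone was called in total reads, where 2.51% of genes were called higher and 2.88% lower. In T>C reads for that interval, 0 were called by DESeq2 or edgeR, where DESeq2 called 1.14% of genes. BOC, GAS1 and GLI3 had unadjusted DESeq2 p-values under 0.05 there, a threshold at which the share of all genes was not counted. The 3h and 24h contrasts share the 0h samples and are not independent of each other.

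**Figure D1:**
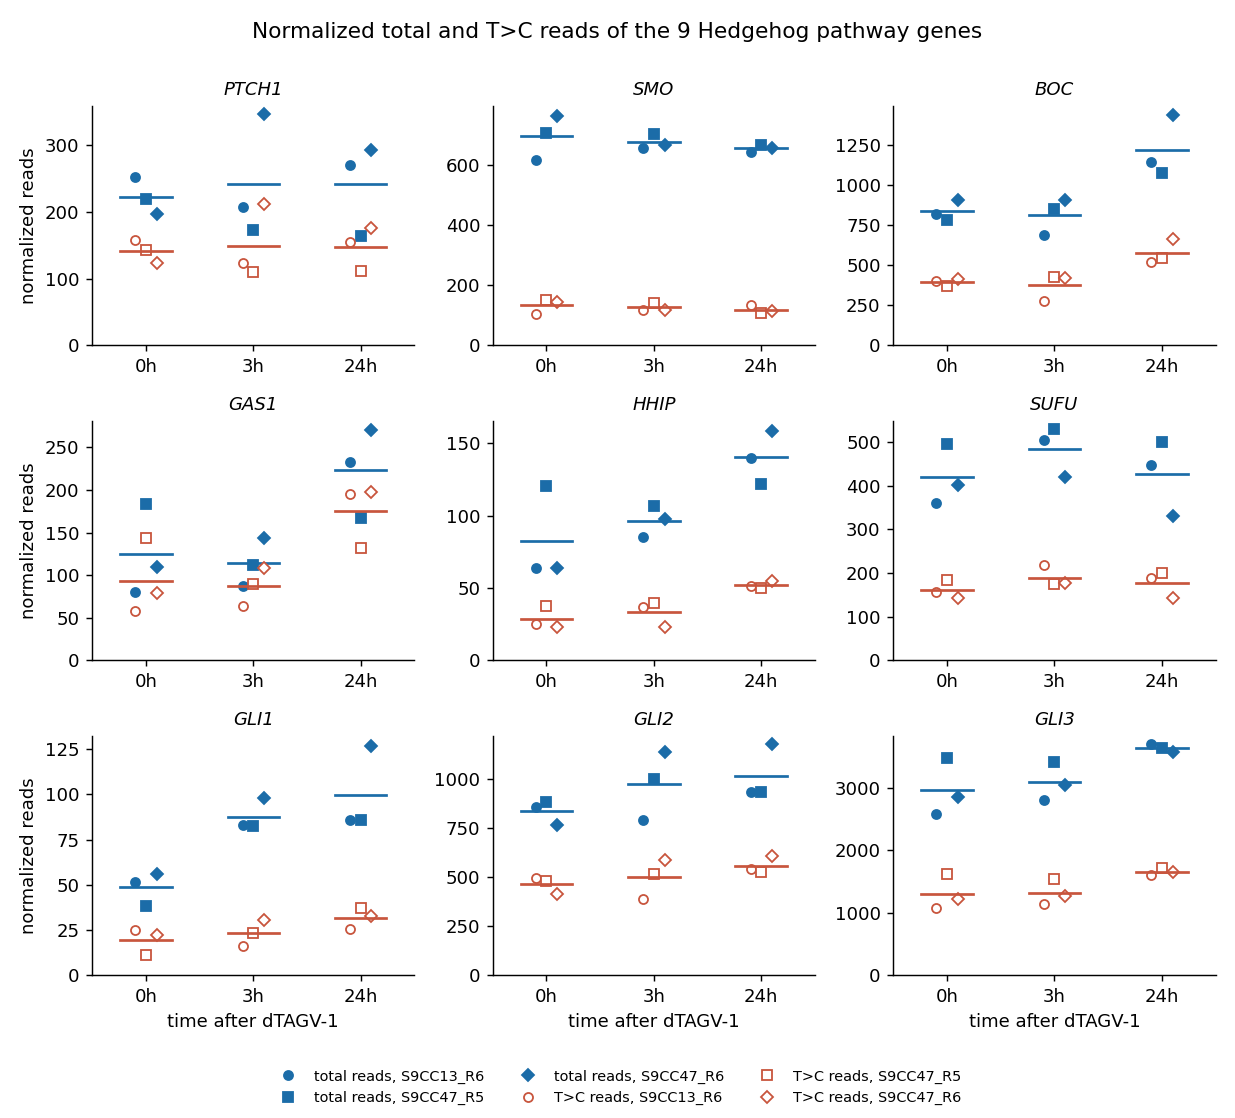
Normalized reads (count divided by the library's DESeq2 size factor) of each Hedgehog gene at 0h, 3h and 24h, with total reads as filled and T>C reads as open symbols, a symbol shape for each of the 3 cultures and a line at each mean. The 3 GLI1 total-read samples at 3h, 82.3 to 97.8, and the 3 BOC samples at 24h, 1077 to 1436, lie above their 0h samples.

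**Figure D2:**
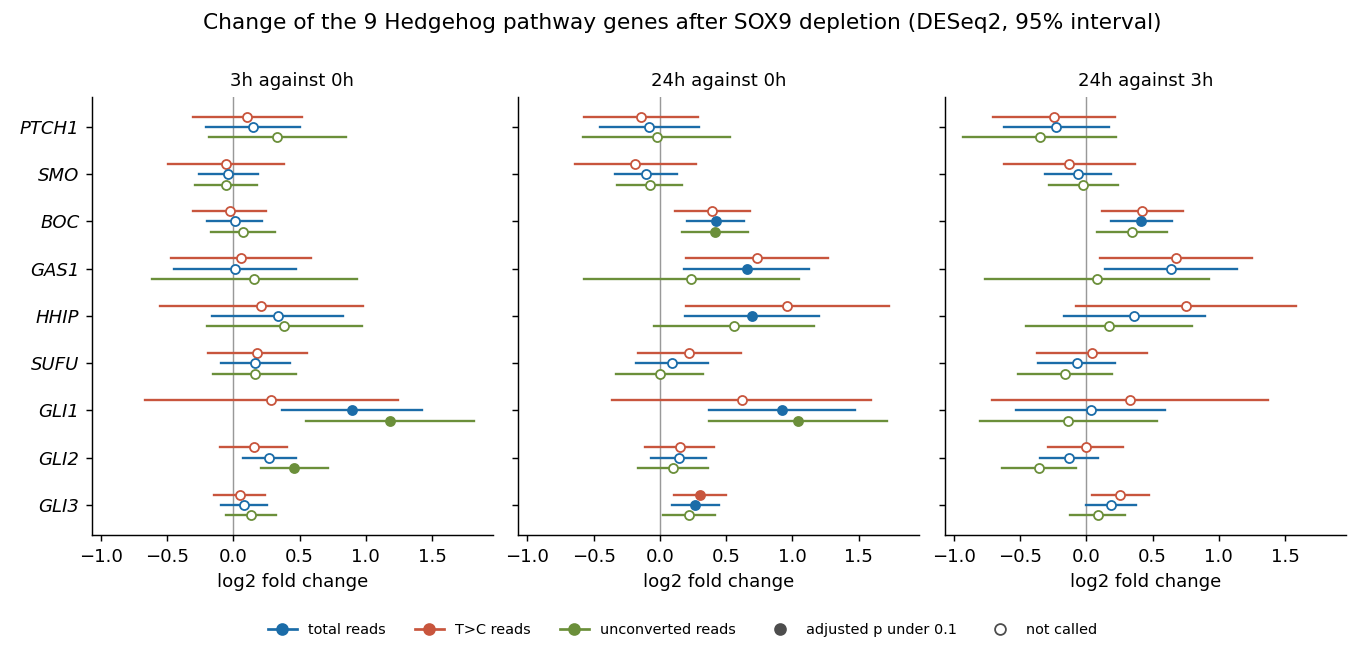
Log2 fold change with its 95% interval for each Hedgehog gene in T>C, total and unconverted reads, for each pair of times, where filled symbols passed the adjusted p threshold. All filled symbols lie to the right of 0, and 5 of them are total reads at 24h.

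PTCH1 (hg38 chr9:95442980-95517057, minus strand), the ligand receptor and a common read-out of pathway activity, did not pass the test at any time. Its normalized total reads, given throughout in the order S9CC13_R6, S9CC47_R5 and S9CC47_R6, were 251, 218 and 196 at 0h, 207, 172 and 346 at 3h, and 269.5, 163 and 292 at 24h. S9CC47_R5 was lower at 3h and 24h than at 0h and S9CC47_R6 was higher, and the groups overlapped. The log2 fold change at 24h was -0.08 in total reads (SE 0.192, 95% interval -0.45 to 0.30, DESeq2 adjusted p = 0.856). T>C reads of PTCH1 averaged 141 ± 17.5 at 0h, 148 ± 55.1 at 3h and 147 ± 33.2 at 24h, and the log2 fold change at 24h was -0.14 (95% interval -0.57 to 0.29, adjusted p = 0.874). Mean total reads were 222 at 0h and 242 at 24h. The sign of the fold change turned with the covariates: without the surrogate variable the log2 fold changes were 0.08 in total reads and 0.04 in T>C reads.

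Promoter sequence was examined for letters that match known recognition motifs of GLI and SOX proteins, because GLI proteins act on these genes and SOX9 is the factor removed. RefSeq promoter windows of 300 bases (250 before and 50 after each start, GRCh38.p14) were at hand for 7 of the 9 genes, 13 windows in all, and none for GLI1 or GLI3. The GLI motif searched was GACCACCCA on both strands (TGGGTGGTC in reverse), which 0.236% of 35116 promoters hold, and the SOX motif was AACAAT on both strands (ATTGTT in reverse), which 10.1% hold. The GLI motif was found in 1 of 5 PTCH1 windows, 172 bases before the start, and the SOX motif in 1 window each of GLI2 (189 bases before the start) and BOC (15 bases before). HHIP, SMO, GAS1 and SUFU windows held neither. The 30 bases around each match are shown 5′ to 3′ on the strand of the gene, with the match in capitals, at chr9:95509419-95509448 (minus) for PTCH1, chr2:120792080-120792109 (plus) for GLI2 and chr3:113211530-113211559 (plus) for BOC. A match is a description of the letters and not of binding.
PTCH1: gttgcctaccTGGGTGGTCtctctactttg
GLI2: ttttgcctggggAACAATgctctaattcct
BOC: gcaaaagaaggaATTGTTtgcgagttcagt

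SMO (chr7:129188633-129213545, plus strand), the transmembrane transducer that PTCH1 restrains, varied little. Its normalized total reads were 616, 705 and 762 at 0h, 654, 701 and 666 at 3h, and 642, 665 and 654 at 24h, with overlap among all times. The log2 fold change at 24h was -0.10 in total reads (95% interval -0.34 to 0.13, DESeq2 adjusted p = 0.651) and -0.18 in T>C reads (95% interval -0.64 to 0.27, adjusted p = 0.83). T>C reads of SMO averaged 133 ± 25 at 0h, 127 ± 13.3 at 3h and 118 ± 13.6 at 24h. The interval in T>C reads, which came from 90 to 190 reads per library, includes decreases of up to 0.64 on the log2 scale.

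BOC (chr3:113211003-113287459, plus strand), a cell-surface co-receptor, rose at 24h in total reads. Total reads were 822, 782 and 905 at 0h, 687, 851 and 908 at 3h, and 1142, 1077 and 1436 at 24h. All 24h samples lay above all 0h and all 3h samples, while 0h and 3h overlapped. The log2 fold change was 0.42 at 24h against 0h (SE 0.11, adjusted p = 0.00273, 1.34-fold, higher in 3 of 3 cultures) and 0.41 at 24h against 3h (SE 0.117, adjusted p = 0.0167), both by DESeq2. The latter was lost without the S9CC13_R6 library at 3h (0.34, adjusted p = 0.352). T>C reads were 401, 369 and 417 at 0h, 275, 427 and 420.1 at 3h, and 521, 545 and 664 at 24h. The 24h samples again lay above the rest, and the log2 fold change against 0h was 0.40 (SE 0.145, adjusted p = 0.116), which missed the threshold in this fit and passed it with culture as a block (0.54, adjusted p = 0.0206). Against 3h the T>C log2 fold change was 0.42 (adjusted p = 0.262), and 0.63 with the block (adjusted p = 0.00604). Unconverted BOC reads averaged 435 ± 41.7 at 0h, 445 ± 33.6 at 3h and 617 ± 115 at 24h, with a log2 fold change of 0.41 at 24h against 0h (adjusted p = 0.0196). The last exon of BOC overlaps CFAP44 on the opposite strand, as those of SMO and GLI1 overlap an unnamed transcript and ARHGAP9, and whether counting used the strand is not given in the sources used here.

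GAS1 (chr9:86944362-86947506, minus strand), a co-receptor anchored to the membrane by lipid and encoded by a single exon, rose at 24h in total reads, though not in every culture. Total reads were 80.8, 184 and 109 at 0h, 87.5, 111 and 144 at 3h, and 233, 168 and 271 at 24h. S9CC47_R5 had the highest value at 0h and the lowest at 24h, so that the groups overlapped and the gene was higher in 2 of 3 cultures. GAS1 was 1.58-fold higher at 24h (log2 fold change 0.66, SE 0.24, DESeq2 adjusted p = 0.056), and the log2 value was -0.32 when culture S9CC13_R6 was left out. T>C reads were 57.3, 144 and 79.2 at 0h, 63.5, 90.1 and 109 at 3h, and 195, 132 and 198 at 24h. Here too S9CC47_R5 was lower at 24h than at 0h while the other cultures were higher, and the log2 fold change of 0.74 (SE 0.273) missed the threshold (adjusted p = 0.127), passing with culture as a block (0.98, adjusted p = 0.03). From 3h to 24h the block also called GAS1, at 1.01 in total reads (adjusted p = 0.00972) and 1.05 in T>C reads (adjusted p = 0.0243), where the fit with batch and surrogate variable gave 0.64 (adjusted p = 0.162) and 0.67 (adjusted p = 0.454). Unconverted GAS1 reads averaged 28.3 ± 3.44 at 0h and 38 ± 13.9 at 24h and did not pass the test (0.24, adjusted p = 0.808).

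HHIP (chr4:144646156-144745271, plus strand), which binds ligand away from PTCH1, rose at 24h in total reads. Its total reads were 63.6, 121 and 63.5 at 0h, 85.3, 106 and 97.8 at 3h, and 140.1, 122 and 159 at 24h. The 24h samples lay above the 0h samples, but S9CC47_R5 differed little between those times. HHIP was 1.62-fold higher, in 3 of 3 cultures (log2 fold change 0.70, SE 0.258, DESeq2 adjusted p = 0.06), and the log2 value was -0.09 when culture S9CC13_R6 was left out. T>C reads averaged 28.4 ± 7.9 at 0h, 33.4 ± 8.83 at 3h and 52 ± 2.57 at 24h. All T>C samples at 24h, from 49.8 to 54.8, lay above those at 0h, from 22.9 to 37.5, with a log2 fold change of 0.96 (SE 0.391, adjusted p = 0.187) that missed the threshold. These values rest on 20 to 74 T>C reads per library, and the last exon of HHIP overlaps unnamed transcripts of the opposite strand.

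SUFU (chr10:102503972-102633535, plus strand), which holds GLI proteins in the cytoplasm, did not pass the test at any time. Total reads were 361, 497 and 402 at 0h, 505, 529.7 and 419 at 3h, and 447, 499.7 and 331 at 24h. The groups overlapped at every pair of times. The log2 fold change at 24h was 0.09 in total reads (95% interval -0.18 to 0.36, DESeq2 adjusted p = 0.746) and 0.22 in T>C reads (SE 0.197, adjusted p = 0.724).

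GLI1 (chr12:57459785-57472268, plus strand), the activator induced by the pathway itself, rose in total reads at 3h and remained higher at 24h. Total reads were 51.5, 38.5 and 55.8 at 0h, 83.1, 82.3 and 97.8 at 3h, and 86, 86.1 and 127 at 24h. All 3h and all 24h samples lay above all 0h samples, and the later times overlapped. GLI1 was 1.86-fold higher at 3h (log2 fold change 0.89, SE 0.269, DESeq2 adjusted p = 0.0565) and 1.90-fold higher at 24h (0.93, SE 0.281, adjusted p = 0.0149), with 0.03 between 3h and 24h (95% interval -0.53 to 0.59, adjusted p = 0.979). With culture as a block the 3h call was lost (0.86, adjusted p = 0.193), and without the S9CC13_R6 library at 3h, surrogate variable kept, the values were 0.90 at 3h (adjusted p = 0.491) and 0.89 at 24h (adjusted p = 0.414).

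The T>C reads of GLI1 did not pass the test at either time. They were 25, 10.9 and 22.1 at 0h, 15.9, 23.4 and 30.3 at 3h, and 25.6, 37.4 and 32.6 at 24h, from 9 to 44 reads per library. At 3h the samples overlapped those at 0h (log2 fold change 0.29), and at 24h they lay just above them (0.62, SE 0.499, 95% interval -0.36 to 1.60, DESeq2 adjusted p = 0.683). Unconverted GLI1 reads were 26.7, 27.6 and 33.3 at 0h, 64.5, 58.5 and 67.1 at 3h, and 60.2, 47.2 and 94.9 at 24h. The unconverted samples at 3h and 24h lay above those at 0h, with log2 fold changes of 1.18 (SE 0.325, adjusted p = 0.0327, 2.27-fold) and 1.05 (SE 0.342, adjusted p = 0.0319). With culture as a block the 3h value was 1.14 (adjusted p = 0.112). That the change in unconverted reads exceeded that in T>C reads was not tested. In unconverted reads, 0.694% of the 11529 genes tested were called higher at 3h and 5.84% at 24h. Between 3h and 24h, 4.59% were called in either direction and 0 Hedgehog genes. In that contrast edgeR called 0 of them, and the block called 1, BOC, with 10.1% of all genes. There, 2 Hedgehog genes had an unadjusted p under 0.05, a threshold at which the share of all genes was not counted.

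GLI2 (chr2:120735623-120992653, plus strand), the main activator of the family, was called in unconverted reads at 3h. These were 369, 387 and 344 at 0h, 428, 489 and 539 at 3h, and 382, 378 and 533 at 24h. The 3h samples lay above the 0h samples by 1.37-fold (log2 fold change 0.46, SE 0.129, DESeq2 adjusted p = 0.0421), and the call was lost with culture as a block (0.40, adjusted p = 0.653). The percent of GLI2 reads with a conversion was 56.0, 57.3 and 55.1% at 0h and 41.2, 49.75 and 52.4% at 3h. It averaged 56.1% and 47.8%, where the median over all genes was 27.4% and 25.2%. Relative to other genes, GLI2 stood at the 92.0 percentile at 0h and the 88.3 percentile at 3h. Unconverted reads include new RNA that took up no label, and its part in the 3h calls of GLI2 and GLI1 was not tested. Total reads of GLI2 were 856, 883 and 765 at 0h, 788, 996 and 1133 at 3h, and 930.2, 933 and 1178 at 24h. Those at 24h all lay above those at 0h, yet neither 24h (0.14, SE 0.106, adjusted p = 0.436) nor 3h (0.27, SE 0.102, adjusted p = 0.248) passed the test. T>C reads of GLI2 averaged 462 ± 42.2, 497 ± 102 and 557 ± 41.2 at 0h, 3h and 24h, with a log2 fold change of 0.15 at 24h (95% interval -0.11 to 0.41, adjusted p = 0.73).

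GLI3 (chr7:41960949-42264100, minus strand), the main repressor of the family, was the only one of the 9 genes called in T>C reads. Its T>C reads were 1072, 1620.4 and 1216 at 0h, 1132, 1531 and 1261 at 3h, and 1604, 1712 and 1654 at 24h. Each culture was highest at 24h, but S9CC47_R5 at 0h exceeded S9CC13_R6 at 24h, so the groups overlapped. Over 0h the 24h log2 fold change was 0.31 (95% interval 0.11 to 0.50, DESeq2 adjusted p = 0.0617), and it was 0.26 against 3h (adjusted p = 0.431). With culture as a block these were 0.37 (adjusted p = 0.0386) and 0.36 (adjusted p = 0.0638), and without the S9CC13_R6 library at 3h the first was 0.28 (adjusted p = 0.362). Total reads of GLI3 were 2576, 3469 and 2853 at 0h, 2800.2, 3413 and 3042 at 3h, and 3699, 3636 and 3566 at 24h. All 24h samples lay above the others, with a log2 fold change of 0.27 against 0h (SE 0.0908, adjusted p = 0.0368, 1.20-fold). Unconverted reads averaged 1638 ± 144 at 0h and 1913 ± 142 at 24h (0.22, adjusted p = 0.169).

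Complete separation of the groups, with every 24h sample above every 0h sample, was seen in total reads for 5 of the 9 genes (GLI1, GLI2, GLI3, HHIP and BOC) and in T>C reads for 4 (GLI1, GLI2, HHIP and BOC). Over all genes tested this held for 13.6% in total reads and 11.0% in T>C reads. Neither set matches the called genes, since GLI2 was separated without passing the test and GAS1 was called while its groups overlapped.

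The T>C share, the percent of a gene's reads that carried a conversion, differed widely among the Hedgehog genes. At 0h it was 75.2% ± 7.35 for GAS1, 64.8% ± 4.24 for PTCH1, 56.1% ± 1.11 for GLI2, 48.1% ± 1.76 for BOC, 44.4% ± 4.73 for GLI3, 39.2% ± 2.95 for SUFU, 39.1% ± 8.59 for GLI1, 35.9% ± 2.63 for HHIP and 19.4% ± 3.10 for SMO (SD, n = 3). The median of 11561 genes was 27.4%, so that all but SMO lay above it, and GAS1 and PTCH1 stood at the 99.3 and 97.1 percentiles. Within that order, BOC and GLI3, SUFU and GLI1, and GLI1 and HHIP lay within 1 SD of each other. The share also depends on how many T bases the sequenced 3′ end offers: T made up 41.6% of the last 250 bases of GAS1, 42.8% of those of HHIP and 22.4% of those of SMO. Across 11558 genes, which are not independent replicates, Spearman's rho between that content and the share was 0.37.

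**Figure D3:**
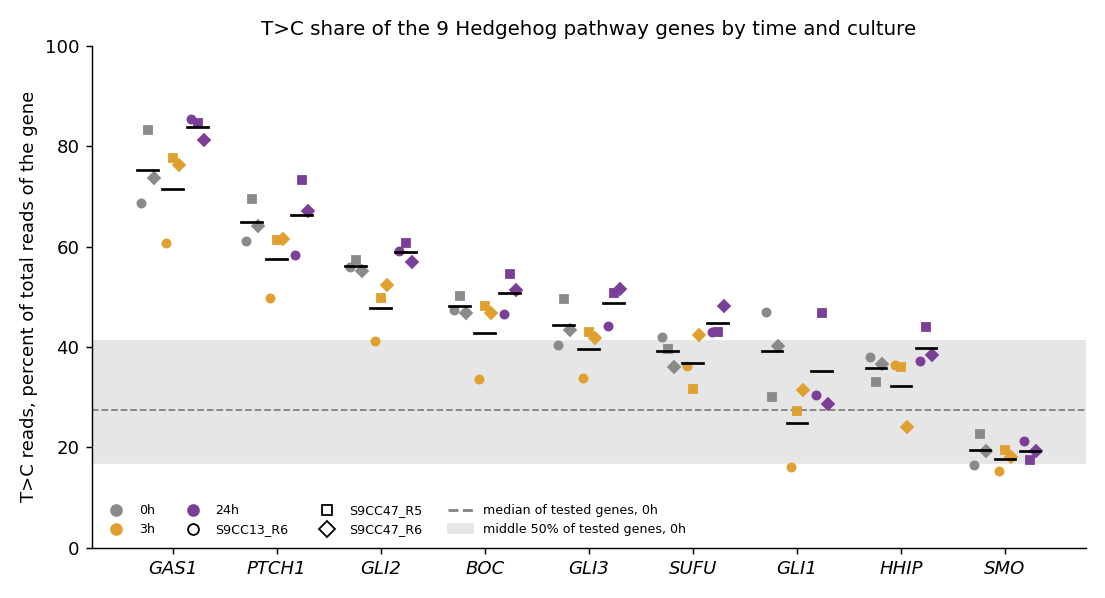
T>C share in percent of each gene's total reads at 0h, 3h and 24h, with a symbol for each culture, a bar at each mean, and the median (27.4%, dashed) and middle 50% (16.9 to 41.1%, grey) of all genes tested at 0h. GAS1 has the highest and SMO the lowest mean at every time, and the GLI1 mean goes from 39.1% at 0h to 24.9% at 3h.

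The share of GAS1 was 68.8, 83.2 and 73.8% at 0h and 85.5, 84.7 and 81.2% at 24h, overlapping at 83.2%. That of GLI1 was 47.1, 30 and 40.3% at 0h, 16.0, 27.3 and 31.3% at 3h, and 30.3, 46.8 and 28.6% at 24h. S9CC13_R6 gave both the highest GLI1 value at 0h and the lowest at 3h, and the groups overlapped. Relative to other genes, GLI1 stood at the 71.6 percentile at 0h, 49.3 at 3h and 62.3 at 24h. PTCH1 had 64.8% ± 4.24 at 0h, 57.6% ± 6.77 at 3h and 66.3% ± 7.46 at 24h. These shares were not tested. Over all genes the median was 25.2% at 3h and 28.7% at 24h.

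Between cultures, compared over the same 3 times, 0 of the 9 Hedgehog genes were called by DESeq2 in T>C or total reads. For S9CC13_R6 against S9CC47_R6, which differ by clone, 3.38% of genes were called in total reads and 1.32% in T>C reads. For S9CC47_R5 against S9CC47_R6, which differ by differentiation batch, 1.65% and 0.690% were called. At an unadjusted p under 0.05 there were 1 and 2 Hedgehog genes in total reads and 1 and 2 in T>C reads for these contrasts. The share of all genes under that unadjusted threshold was not counted. BOC was lower in S9CC13_R6 at all 3 times (total reads -0.29, SE 0.126, adjusted p = 0.264, T>C reads -0.32, adjusted p = 0.526). PTCH1 in S9CC47_R5 gave -0.58 in total reads (SE 0.228, adjusted p = 0.305) and SUFU 0.41 (SE 0.155, adjusted p = 0.271). T>C reads of GLI3 were higher in S9CC47_R5 than in S9CC47_R6 at 3 of 3 times (0.25, SE 0.116, adjusted p = 0.745).

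The genes whose T>C profile over the 9 samples was most like that of GLI3 were FTL (Pearson r = 0.98), EIF4G2 (0.97) and PFKFB3 (0.96), among the 8676 genes whose normalized T>C reads averaged 50 or more. In all, 30 genes had an r over 0.9. Among the other Hedgehog genes in that set, r was 0.87 for GAS1, 0.66 for BOC, 0.53 for GLI2, 0.23 for SMO, 0.11 for SUFU and -0.14 for PTCH1. The samples share cultures and times, so these values are descriptions.

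A further 51 genes of the pathway, from ligands to targets, were listed to place the 9. Of these, 40 could be tested and 11 had too few reads: the ligands SHH (0 to 2 total reads per library), IHH (0 to 9) and DHH (0 to 2), SCUBE2 (0 to 8), LRP2 (0 to 2), EVC2 (6 to 19), and the target genes FOXF1 (0 to 3), FOXF2 (0 to 5), FOXL1 (1 to 10), NKX2-2 and NKX3-2 (0 to 4). NKX2-2 had 0 reads in every library, which allows up to 3 per library. Hedgehog ligand RNA was thus near the limit of detection in these cells at every time. At 24h, 3 of the 40 were called higher and 6 lower in total reads, beside 7.11% and 7.85% of all genes, and 2 were called higher and 4 lower in T>C reads, beside 2.38% and 2.59%. In total reads the count of higher calls is thus near the share over all genes. The median log2 fold change of the 40 was 0.04 and -0.03, respectively.

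Among genes for ligand release, DISP1, a transporter that exports lipid-modified ligand, rose from 1109.5 ± 199.5 to 1671 ± 188 total reads at 24h (log2 fold change 0.61, DESeq2 adjusted p = 6.03e-07) and in T>C reads by 0.69 (adjusted p = 1.98e-06). DISP1 was also called at 3h in total reads (0.36, adjusted p = 0.0324), which culture as a block did not call and 9 of 21 alternatives did. Between cultures, DISP1 was higher in S9CC47_R5 than in S9CC47_R6 in total (0.44, adjusted p = 0.0128) and T>C reads (0.55, adjusted p = 0.00175). SCUBE3, a secreted carrier of the ligand, fell by 0.58 in total reads (adjusted p = 0.00436). CCND2, a cell-cycle cyclin and GLI target, rose from 15193 to 22390 total reads (0.49, adjusted p = 5.92e-11) and was also called in T>C reads at 3h (0.31, adjusted p = 0.00302), a call that was lost with culture as a block (0.28, adjusted p = 0.269) and was made by 11 of 22 alternatives. The other 3 testable targets outside the core were not called at 24h, where 15.0% of all genes were called in either direction in total reads and 4.98% in T>C reads.

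KIF3A, a kinesin subunit needed to build cilia, fell from 1437 ± 200.3 to 935 ± 7.59 total reads at 24h (-0.62, DESeq2 adjusted p = 1.27e-06). It had fallen by 3h in T>C reads (-0.75, adjusted p = 6.7e-05) and in total reads (-0.48, adjusted p = 0.000794). RAB23, a small GTPase that restrains the pathway, rose from 198 to 297 total reads at 24h (0.51, adjusted p = 0.0375). The other 10 of 12 testable cilium genes were not called in total reads at 24h, and the 2 calls are near the 15.0% of all genes called there. Among the 10 genes for GLI kinases and turnover, ULK3 (-0.30, adjusted p = 0.0724), STK36 (-0.48, adjusted p = 0.0155) and SPOP (-0.25, adjusted p = 0.0523), the first pair being kinases and SPOP a ubiquitin ligase adaptor for GLI proteins, were lower in total reads at 24h. ARRB2, an arrestin that acts on SMO, fell by 0.41 (adjusted p = 0.000417). With culture as a block the ULK3 call in total reads was lost (-0.27, adjusted p = 0.164), and 7 of 21 alternatives made it. In T>C reads at 24h, ARRB2 (-0.65), KIF3A (-0.67), ULK3 (-0.62) and SPOP (-0.31) were called lower. GPC3, a glypican that competes for ligand, was lower at 24h than at 3h in T>C reads (-0.54, adjusted p = 0.0202). The remaining genes listed were not called in T>C or total reads at any time. Without the S9CC13_R6 library at 3h, surrogate variable kept, the 24h total-read calls of ARRB2, RAB23, SCUBE3, SPOP, STK36 and ULK3, the 24h T>C calls of SPOP and ULK3 and the total-read call of KIF3A at 3h were lost, while the 24h calls of DISP1, CCND2 and KIF3A were not. With the surrogate variable kept, all calls between times given here for the wider pathway were lost without culture S9CC13_R6. Without that culture and without a surrogate variable, the 24h calls of DISP1 and CCND2 were still made in total and T>C reads. Over the alternatives, the log2 fold change in total reads at 24h ranged from -0.74 to -0.019 for STK36 and from -0.32 to -0.065 for SPOP.

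**Figure D4:**
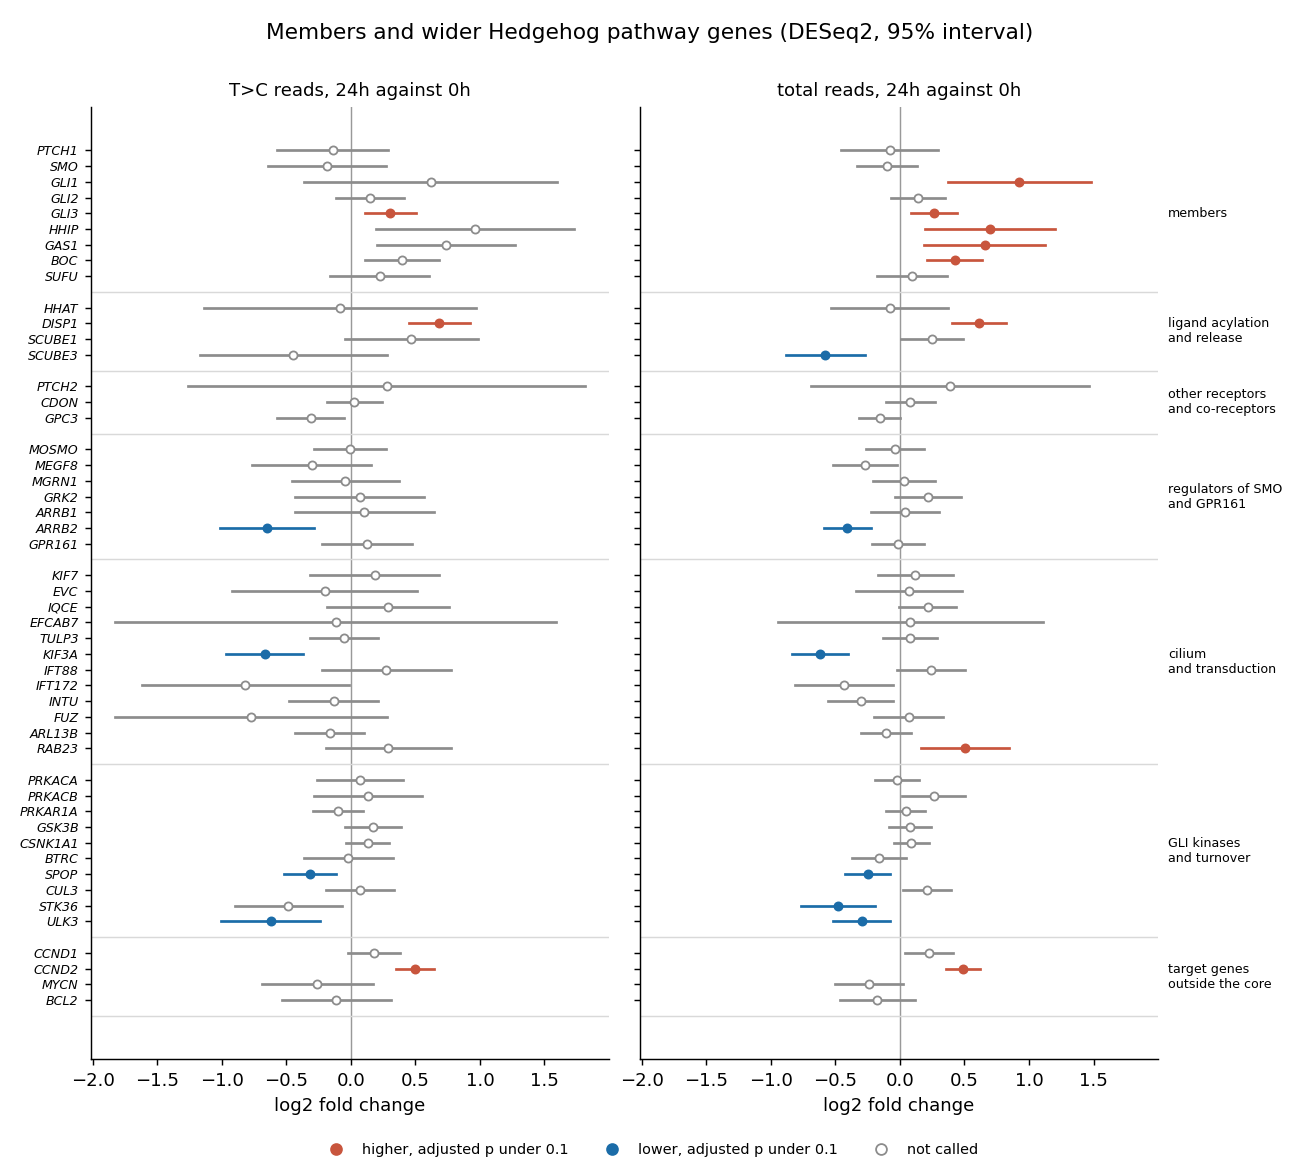
Log2 fold change at 24h against 0h in T>C and total reads for the 9 Hedgehog genes and the testable genes of the wider pathway, grouped by role, with called genes in red (higher) and blue (lower). In total reads, 5 of the 9 Hedgehog genes are red and none is blue, whereas among the 40 other genes 3 are red and 6 are blue.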

How the data were processed

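For 9 samples the authors deposited raw counts by gene symbol in 2 tables, of all reads and of reads with a T>C conversion. Per the authors' methods, read 1 was trimmed with skewer and of poly(A), mapped and counted with slamdunk over annotated 3′ regions, and merged per gene, on hg38 per the labels. No molecular identifiers were stated, so precision covers counting and culture spread only. All 9 value columns were used. Groups came from sample titles. Unconverted reads were total minus T>C reads. DESeq2 (1.42.0, R 4.3.3) was fitted to all 9 samples with time, batch and 1 surrogate variable (sva 3.50.0, on size-factor-scaled counts), for protein-coding genes at or over 1 CPM in 3 or more samples, without independent filtering. Cultures were compared with time and culture as terms. Symbols were matched to GENCODE 44 (18451 of 18970), then to RefSeq symbols (11) or synonyms (390), and 118 matched none. Cultures pair samples by the clone and batch in the titles, and same-culture deviations correlated at a mean of 0.131 in T>C and 0.273 in total reads (9 pairs each). Alternatives included edgeR 4.0.16, TMM, other filters and covariates, culture as a block, 6 samples, and libraries left out. The fits were tested on simulated counts. The 9 genes, lists, motifs and the named genes (all 9, the called or untestable listed genes, and the 3 most like a gene called in T>C reads) were chosen with earlier results of these data known.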

Additional observations from a re-analysis of the deposited data

Results flagged for a closer look

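BOC differed in its effect between the times. In total reads its log2 fold change against 0h was 0.01 at 3h and 0.42 at 24h, and the direct test of 24h against 3h gave 0.41 (DESeq2 adjusted p = 0.0167). BOC was higher at 24h than at 3h in 3 of 3 cultures. The call was lost when the S9CC13_R6 library at 3h was left out with the surrogate variable kept (0.34, adjusted p = 0.352) or dropped (0.43, adjusted p = 0.12). It was also lost without culture S9CC13_R6, with the surrogate variable kept or dropped, and without S9CC47_R5 with it kept. The block with a surrogate variable and the fit of only the 6 samples compared lost the call too. The sign was the same in 21 of 21 alternatives, and 14 of them called it.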

How the results depend on the processing

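The number of Hedgehog genes called moved with several choices. At an adjusted p under 0.05, 0 were called in total reads at 3h, 3 in total reads at 24h and 0 in T>C reads at 24h. With the replicate block, 0 were called in total and 0 in unconverted reads at 3h, 3 in T>C reads at 24h, and for 24h against 3h 2 in total, 3 in T>C and 1 in unconverted reads. The block changed no other count. Without the surrogate variable the counts were the same as with the block, except 2 in T>C reads for 24h against 3h. Without covariates they were 0 at 3h in total and unconverted reads. At 24h they were then 4 in total reads, with GLI3 lost, and 2 in T>C reads, BOC and GAS1. For 24h against 3h they were 2 in total, 2 in T>C and 1 in unconverted reads. The block with a surrogate variable gave 0 in total reads at 3h, 2 in total, 0 in T>C and 0 in unconverted reads at 24h, and 0 in total reads for 24h against 3h. Only the 6 samples compared gave 0 in total and unconverted reads in the contrasts with calls, and 3 in T>C reads at 24h. Testing all genes with at least 1 count gave 0 in total reads at 3h, 2 in T>C reads at 24h and 2 in total reads for 24h against 3h. The surrogate variable from raw counts, tried after seeing the data, gave 0 at 3h in total and unconverted reads. It gave 4 in total reads, with GLI3 lost, and 0 in T>C reads at 24h, and 2 in total reads for 24h against 3h. In T>C reads, edgeR called 4 at 24h, a mean of at least 20 counts left 0, and size factors from total reads gave 2 for 24h against 3h. The share of all genes called moved as well. In T>C reads at 24h it was 4.98% in the main fit, 8.04% with edgeR, 6.00% with the block and 5.40% without covariates. In total reads at 24h it was 15.0%, 17.2%, 14.7% and 10.9% in that order, and 3.21% with 6 samples. For 24h against 3h in T>C reads it was 1.14% in the main fit, 2.23% with size factors from total reads and 4.40% with the block. The cause of these shifts was not tested.

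Leaving out a culture, or only its library at 3h (chosen after seeing the data), gave 0 to 0 calls at 3h in total and in unconverted reads. At 24h it gave 0 to 5 in total, 0 to 3 in T>C and 0 to 3 in unconverted reads, and for 24h against 3h 0 to 2 in total and 0 to 1 in T>C reads. These fits called 1.33 to 12.8% of all genes in total reads and 0.459 to 6.02% in T>C reads at 24h. Between cultures, leaving out the samples of a time gave 0 to 1 in total reads, with GLI2 called for S9CC13_R6 and PTCH1 for S9CC47_R5 against S9CC47_R6 without the 0h samples.

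PTCH1 at 24h reversed to log2 fold changes of 0.083 in total and 0.040 in T>C reads without the surrogate variable, 0.076 and 0.029 with the replicate block, 0.13 and 0.066 without covariates, 0.14 and 0.033 with the surrogate variable from raw counts, and to 0.043 in T>C reads with 6 samples. Without the surrogate variable it was also 0.079 and 0.036 without the S9CC13_R6 library at 3h, 0.060 and 0.062 without culture S9CC13_R6, and 0.33 and 0.24 without S9CC47_R5. With 6 samples, GLI1 in total reads for 24h against 3h was -0.042 and GAS1 in unconverted reads at 24h was -0.10, and without the S9CC13_R6 library at 3h they were -0.010 and -0.17. With a culture left out and no surrogate variable, SUFU in total reads at 24h reached -0.13, and in T>C reads at 3h GLI1 reached -0.016, GLI2 -0.11 and SMO 0.048.

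With each culture left out and the surrogate variable kept, the log2 fold change at 24h in total reads ranged from -0.32 to 1.21 for GAS1, -0.092 to 1.11 for HHIP, -0.67 to 0.063 for PTCH1, -0.12 to 0.029 for SMO and -0.0088 to 0.21 for SUFU. In T>C reads at 24h it ranged from -0.029 to 1.54 for GAS1, -0.081 to 1.64 for GLI1, -0.42 to -0.036 for PTCH1, -0.39 to 0.29 for SMO and -0.0044 to 0.34 for SUFU. At 3h it ranged from -0.046 to 0.84 for GLI1, -0.11 to 0.29 for GLI2 and -0.17 to 0.075 for SMO in T>C reads. In unconverted reads at 24h it ranged from -0.19 to 0.47 for GAS1 and -0.24 to 1.00 for HHIP, and in total reads for 24h against 3h from -0.022 to 1.53 for GAS1 and -0.026 to 0.28 for GLI1. BOC and GLI3 kept their sign at 24h in T>C and total reads under every alternative run, as did GLI2, which was not called there. The low counts of GLI1 and HHIP limit what their T>C reads can show.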
